A study of Mus musculus with 2 samples.

Results

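The transforming growth factor beta (TGF-beta) and bone morphogenetic protein (BMP) pathway was examined in naive CD8+ T cells that had lost the transcription factor Bcl11b. It was represented by 10 genes, the ligands Tgfb1, Tgfb2, Tgfb3 and Bmp7, the receptors Tgfbr1, Tgfbr2 and Tgfbr3, and the intracellular mediators Smad2, Smad3 and Smad7. All gene spots that the array design names for these genes were taken, which gave 16 probes on 34 spots of each array, of 41174 probes on 43379 gene spots in all. The design names 27745 genes. The 10 genes were chosen by name with the ratios of earlier analyses of these arrays known. Their differences between the genotypes are therefore given as a description. Which of them passed the fit across all genes is stated once, beside the share of all genes that did, and supports nothing.

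The cells were naive CD8+ T cells, sorted for little CD44 and CD25 to over 90% purity per the labels, from Bcl11bF/F/dLck-iCre mice and from wild type mice, both on the C57BL/6 background. In the Bcl11bF/F/dLck-iCre mice, floxed Bcl11b alleles are removed by an iCre recombinase under the distal Lck promoter, which acts late in T cell development. RNA of each genotype was hybridised together on 2 two-colour arrays, knockout in Cy5 and wild type in Cy3, and the labels call the arrays biological replicates. The age of the mice and the number of mice behind each sample are not given in the sources used here. The p-values below therefore speak only for these samples. In the main fit they set each gene's mean ratio against a spread shared by all genes, not against the gene's own. Under some other settings the gene's own spread entered as well. Since the dyes were never swapped, the effects of dye and genotype on a gene cannot be told apart.

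Ligands of this family are secreted dimers that bring together a type I and a type II receptor kinase. For TGF-beta these are Tgfbr1 and Tgfbr2. The activated type I receptor phosphorylates receptor Smads, Smad2 and Smad3 for TGF-beta and Smad1, Smad5 and Smad9 for BMPs, which enter the nucleus with Smad4. In T cells, TGF-beta signalling is known for holding naive cells quiescent and for limiting effector differentiation.

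The brighter Bcl11b probe had log2 ratios of knockout over wild type of -1.45 on array 1 and -1.73 on array 2, while a second probe gave -0.35 and -2.32. No annotation was used here to place these probes against the floxed exon. A spot is called detected below where the scanner software marked it well above background in that channel, and a probe where most of its spots were. Knockout RNA was detected at 39.8% of gene spots on array 1 and 25.3% on array 2, and wild-type RNA at 24.8% and 31.0%. Array 1 was more variable, with 2504 of the 9273 genes measured past 2-fold, against 263 on array 2. Of 10 CD8 T cell markers on the array, all were detected in every channel.

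Unspecific signal sets the lower limit of these measurements. The 153 negative control spots had median signals of 985 (knockout) and 1087 (wild type) on array 1, and of 1865 and 1120 on array 2. All spot signals below are raw mean intensities of one channel, to be read against the negative controls of that channel. Of the 16 probes, 9 were detected in the knockout on both arrays, 3 in wild type on both arrays, and 6 in no channel. The 9 probes belong to 8 genes, which left Tgfb2 and Tgfbr3 unmeasured.

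**Figure D1:**
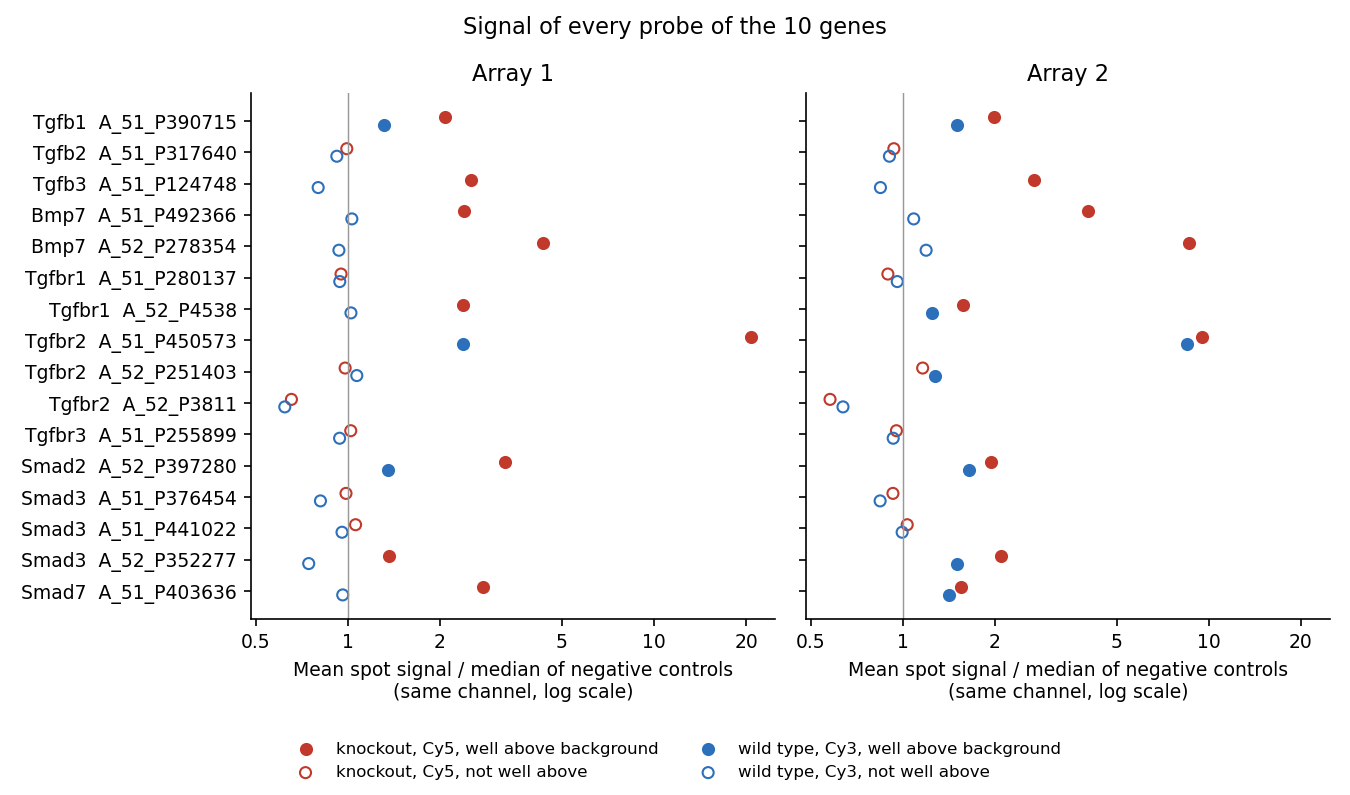
Mean spot signal of each of the 16 probes on the x axis (log scale), divided by the median of the 153 negative control spots in the same channel, for knockout (red, Cy5) and wild type (blue, Cy3) on each array; filled points were detected (well above background). The knockout points of Bmp7 and Tgfb3 are filled on both arrays and their wild-type points are open, whereas Tgfb1, Smad2 and 1 probe of Tgfbr2 are filled throughout.

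Among the ligands, Bmp7 and Tgfb3 were higher in the knockout on both arrays, while Tgfb1 was detected in both genotypes at nearly equal levels and Tgfb2 in neither. Bmp7 encodes a secreted BMP best known from kidney and bone development. Its brighter probe, A_52_P278354, had knockout signals of 4276 on array 1 and 16081 on array 2, which were 4.34 and 8.62 times the negative controls. The wild-type signals of that probe were 1017 and 1336, or 0.935 and 1.19 times the negative controls, and it was detected in neither. Relative to the negative controls, both knockout values lay above both wild-type values. The log2 ratios of knockout over wild type were 1.98 and 3.27, a mean of 2.63 ± 0.91 (SD, n = 2). Since wild type was not detected, only a bound can be given: Bmp7 in the knockout was at least 5.92-fold higher over both arrays, with bounds of 3.62-fold on array 1 alone and 9.65-fold on array 2 alone. This bound compares the mean knockout level with, on each array, the higher of the probe's own wild-type level and the lowest level of any detected probe. It rests on channel levels after loess and Aquantile normalisation and is open to dye bias.

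A second Bmp7 probe, A_51_P492366, was printed in 10 spots on each array and so shows the technical spread. On array 1 its knockout signals ran from 1917 over a median of 2371 to 2725, and its wild-type signals from 1079 over 1110 to 1163. On array 2 the knockout spots ran from 6770 over 7269 to 8482, and the wild-type spots from 1190 over 1212 to 1260. All 10 knockout spots were detected on both arrays, and no wild-type spot was. The log2 ratio of the spots was 1.03 ± 0.17 on array 1 and 2.41 ± 0.09 on array 2 (SD over 10 spots of 1 array, a technical error). The difference between the arrays was thus larger than the spread of the spots within either. The bound from this probe was at least 3.11-fold higher, and 2.01-fold on array 1 and 4.80-fold on array 2 alone.

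The pair of Bmp7 probes lies on chromosome 2 of mm8, the build of the array design, at 172512641 to 172512700 and at 172512720 to 172512779, both on the minus strand. They are 60 bases long each with 19 bases between them, so they read nearly the same stretch of the transcript. No annotation of that build was used here, so no probe is assigned to an exon or an untranslated region.

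Tgfb3 encodes the third TGF-beta isoform. Its single probe, A_51_P124748 (chromosome 12 of mm8, 86945957 to 86946016, minus strand), had knockout signals of 2482 on array 1 and 4992 on array 2. These were 2.52 and 2.68 times the negative controls. The wild-type signals were 870 and 948, or 0.800 and 0.846 times the negative controls. Knockout was detected on both arrays and wild type on neither. The log2 ratios were 2.59 and 2.66, a mean of 2.62 ± 0.05 (SD, n = 2). Because the wild-type signal lay below the negative controls on both arrays, that ratio overstates what can be measured, and the bound was at least 2.81-fold higher (2.45-fold on array 1 and 3.22-fold on array 2 alone).

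Tgfb1 encodes the isoform that lymphocytes mainly produce. Its probe, A_51_P390715 (chromosome 7 of mm8, 25413618 to 25413677, plus strand), was also printed in 10 spots, all detected in every channel. The knockout spots ran from 1444 over a median of 2184 to 2347 on array 1 and from 3578 over 3717 to 3805 on array 2. The wild-type spots ran from 1292 over 1438 to 1501 and from 1610 over 1681 to 1732. On array 1, 10 of 10 spots had a negative log2 ratio, between -0.34 and -0.02. On array 2, 10 of 10 had a positive one, between 0.32 and 0.50. The arrays therefore gave opposite signs although the spots of each were close together (SD 0.10 and 0.05). The mean was 0.10 ± 0.39 (SD, n = 2), and the difference between the genotypes did not exceed the spread between the arrays. With each array centred by its median in place of loess, the Tgfb1 ratios were 0.44 and 0.48. The medians of all genes measured were then 1.11 and 0.18.

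**Figure D2:**
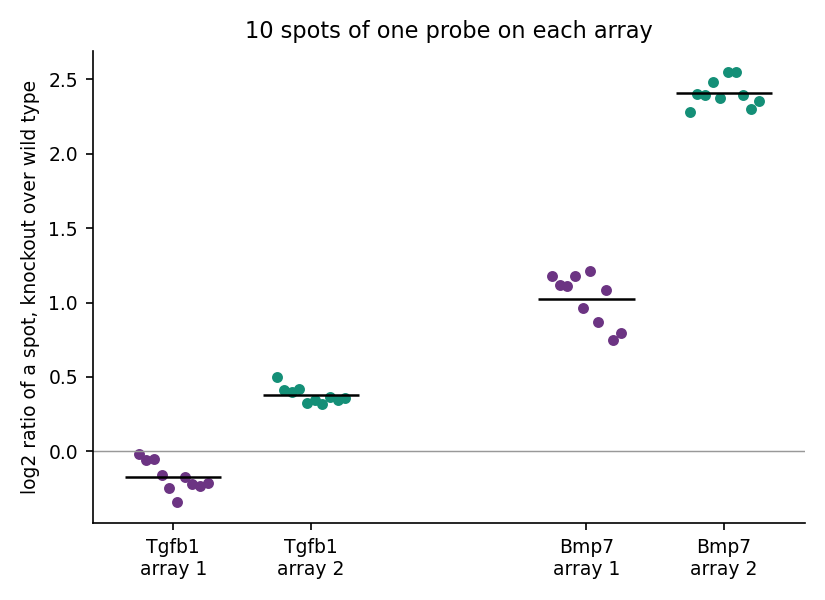
log2 ratio of knockout over wild type (y axis) of the 10 spots of 1 Tgfb1 probe and 1 Bmp7 probe on each array, with the mean of the spots as a line. The Tgfb1 spots lie between -0.34 and -0.02 on array 1 and between 0.32 and 0.50 on array 2, and the Bmp7 spots between 0.75 and 1.21 on array 1 and between 2.28 and 2.55 on array 2.

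Tgfb2, the remaining TGF-beta isoform, was not detected. Its probe A_51_P317640 had knockout signals of 977 and 1745 and wild-type signals of 1001 and 1014, all between 0.905 and 0.992 times the negative controls. Its log2 ratios of 0.10 and 0.16 carry no measurement.

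Of the receptors, Tgfbr2 was detected in every channel, Tgfbr1 in the knockout on both arrays but in wild type on array 2 only, and Tgfbr3 in no channel. Tgfbr2 is the type II receptor that binds TGF-beta. Its probe for the transcript NM_009371, A_51_P450573 (chromosome 9 of mm8, 115936735 to 115936794, minus strand), had knockout signals of 20471 and 17766. The wild-type signals were 2579 on array 1 and 9509 on array 2. The wild-type channel of array 1 stood apart, at 2.37 times the negative controls against 8.49 on array 2. The log2 ratios were 1.39 and -0.34, so the arrays had opposite signs, and the mean was 0.53 ± 1.22 (SD, n = 2). With each array centred by its median in place of loess, the ratios of this probe were 2.84 and 0.04.

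The other Tgfbr2 probes were dim. A_52_P251403, designed on the transcript NM_029575, had knockout signals of 965 and 2167 and wild-type signals of 1163 and 1428. It was detected only in wild type on array 2, with log2 ratios of -0.45 and -0.27. A_52_P3811, designed on the cDNA AK090393, stayed below the negative controls in every channel, between 0.579 and 0.654 times their median.

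Tgfbr1 is the type I receptor kinase that Tgfbr2 activates. Its probe A_52_P4538 (chromosome 4 of mm8, 47435649 to 47435708, plus strand) had knockout signals of 2336 and 2932 and wild-type signals of 1113 and 1397. The wild-type signal was 1.02 times the negative controls on array 1 and 1.25 times on array 2. The log2 ratios were 1.04 and 0.43, a mean of 0.73 ± 0.43 (SD, n = 2). Both lay above 0, but the larger one came from the array on which wild type was not detected. A second Tgfbr1 probe, A_51_P280137, whose annotated position spans 3659 bases on the genome, was below the negative controls in every channel. Tgfbr3, the coreceptor betaglycan, had signals of 1007 and 1779 in the knockout and 1022 and 1043 in wild type, between 0.931 and 1.02 times the negative controls.

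Smad3 and Smad7 had their larger ratio on array 1, while the ratios of Smad2 were close to each other after loess. Smad2, a receptor Smad of the TGF-beta branch, was detected in every channel, with knockout signals of 3214 and 3615 and wild-type signals of 1474 and 1842 (probe A_52_P397280, chromosome 18 of mm8, 76430331 to 76430390, plus strand). Its log2 ratios were 0.17 and 0.12, with a mean of 0.15 ± 0.04 (SD, n = 2). With each array centred by its median in place of loess, the Smad2 ratios were 1.19 and 0.24.

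Smad3, the second receptor Smad of that branch, gave knockout signals of 1342 and 3917 with its brightest probe, A_52_P352277 (chromosome 9 of mm8, 63445330 to 63445389, minus strand). Its wild-type signals were 810 on array 1, below the negative controls, and 1683 on array 2, where it was detected. The log2 ratio was 1.84 on array 1 and 0.47 on array 2, a mean of 1.16 ± 0.97 (SD, n = 2). The other Smad3 probes were detected in no channel, and gave 0.12 and 0.15 (A_51_P441022) and 0.57 and 0.40 (A_51_P376454).

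Smad7, the inhibitory Smad that TGF-beta itself induces, had knockout signals of 2727 and 2894 and wild-type signals of 1047 and 1585 (probe A_51_P403636, chromosome 18 of mm8, 75521082 to 75521141, plus strand). The log2 ratio was 1.50 on array 1 and 0.07 on array 2, a mean of 0.78 ± 1.01 (SD, n = 2). Wild type was detected on array 2 only.

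**Figure D3:**
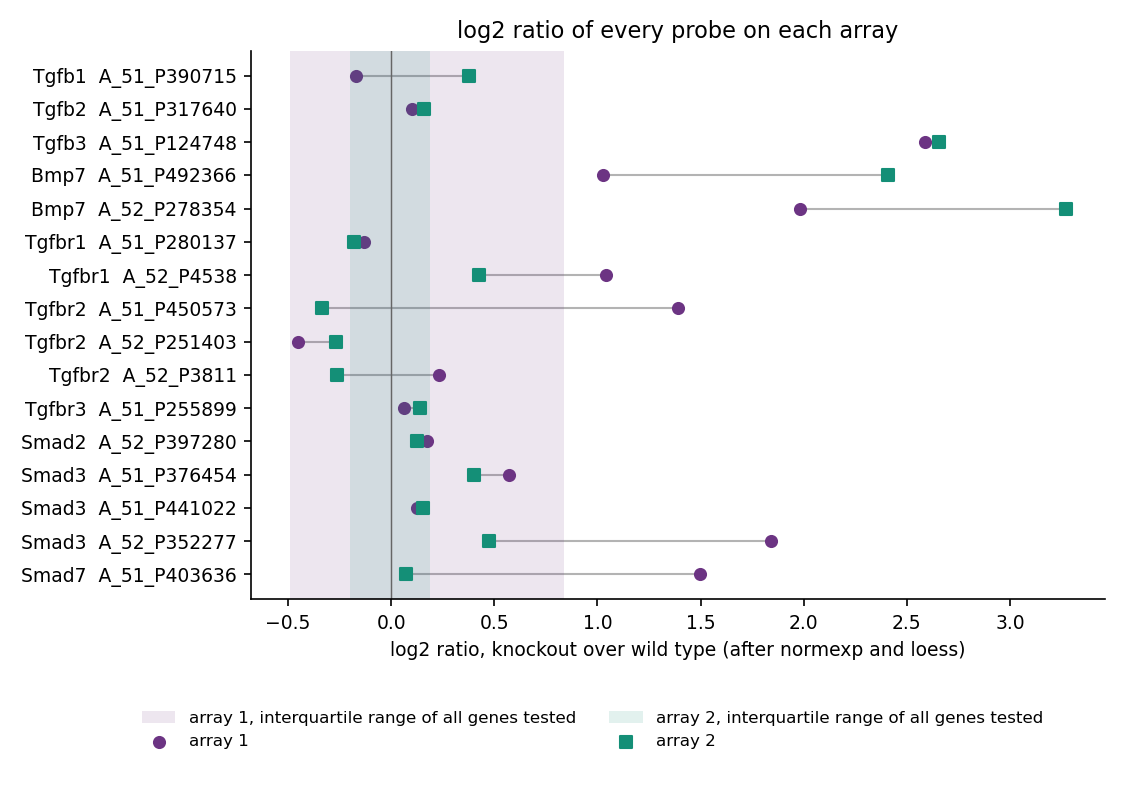
log2 ratio of knockout over wild type (x axis) of each of the 16 probes on array 1 (circles) and array 2 (squares), joined by a line; the shaded bands span the interquartile range of the 9273 genes measured on each array. Both Bmp7 probes and the Tgfb3 probe lie to the right of both bands on both arrays, while the brightest probes of Tgfbr1, Tgfbr2, Smad3 and Smad7 lie above the band of array 1 at 1.04, 1.39, 1.84 and 1.50. On array 2 Tgfbr1 (0.43), Smad3 (0.47) and Tgfb1 (0.38) lie above the band, Smad7 (0.07) within it and Tgfbr2 (-0.34) below it.

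The 3 genes detected in wild type on array 2 only were Tgfbr1, Smad3 and Smad7. Each had its larger ratio on array 1, where that channel was near or below the negative controls. On array 2, where both genotypes were measured, these genes stood at 0.43, 0.47 and 0.07. Bmp7 and Tgfb3 likewise were measured through the knockout, the genotype in which they were higher, so no median or count of signs over the measured members is given. The genes detected in every channel, Tgfb1, Tgfbr2 and Smad2, had mean ratios of 0.10, 0.53 and 0.15.

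By the fit across all genes (limma, Benjamini-Hochberg adjusted p under 0.05), 2 of the 8 measured members passed, Bmp7 and Tgfb3, both higher in the knockout. Of all 9273 genes, 1.49% passed, 1.24% higher and 0.248% lower. The calls were higher for 115 of 138 genes, and for 63 of 64 when each array was centred by its median. The same members, Bmp7 and Tgfb3, were the ones more than 2-fold higher on each array, as 1.12% of all genes were. No member was more than 2-fold lower on each array, as 0.226% of all genes were. These counts are read no further, since the members were chosen with the ratios known. In the main fit all genes shared one standard error (0.50 on the log2 scale), so that their order in the test was that of the mean ratio. When the arrays were brought to an equal spread of log ratios, or when the scanner software's ratios were used, neither member passed. The same held without a filter on dim probes, and without background correction Bmp7 passed and Tgfb3 did not.

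The ratios of several dim genes, though not of all, were larger on the scanner software's own scale. That scale differs from the one used here in both background and dye normalisation. The scanner software subtracted a median background of 987 (knockout) and 1079 (wild type) on array 1 and of 1837 and 1122 on array 2, close to the negative controls. The local background subtracted here had medians of 45, 35, 51.5 and 37. On the scanner's scale the log2 ratios of Bmp7 (A_52_P278354) were 5.05 on array 1 and 4.93 on array 2. Those of Tgfb3 were 4.29 and 5.20. The scanner's ratio for Tgfbr1 (A_52_P4538) was 4.15 on array 1 and 1.03 on array 2, and that for Smad7 was 4.39 and 0.14. Those of Smad2 were smaller than here, at 0.08 and 0.04, and those of the undetected Tgfb2 and Tgfbr3 were 0 on both arrays.

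A list of 112 other genes of the pathway, grouped by role, had 111 on the array. Of these, 36 were measured and 62 were detected in no channel, among them 25 of 30 other ligands and 11 of 16 other receptors and coreceptors. Over the whole design, 9273 of 27745 genes were measured. Of the 36 measured genes, none rose, 1 fell and 35 did not pass (limma, adjusted over all 9273 genes), while 1.24% of all genes rose. Of the 36, 3 had an unadjusted p under 0.05 in either direction (limma), as did 904 of all 9273 genes. The count of 0 does not set the list apart from all genes, and Klf10 was called higher under other settings. On both arrays, 7 had a ratio above 0 and 15 a ratio below 0, against 2868 and 2859 of the 9273 genes. The list's median log2 ratio was -0.22 on array 1 and -0.26 on array 2. Some of these genes, such as Nog and Gdf9, were detected on both arrays only in the genotype in which they were higher. The filter thus partly set these signs and medians. With both genotypes detected on both arrays, 3 of 21 genes were above 0 and 6 below 0 on both arrays. The median of their mean ratios was then 0.13, against 0.004 for all genes under that filter. With a median centre for each array instead of loess, the median of all genes moved up by 0.65, and 13 pathway genes were then above 0 and 9 below 0 on both arrays. With no normalisation the median of all genes moved up by 1.34, and the split was 32 to 1. Under median centring the median of the genes' mean ratios was 0.33 for the list and 0.68 for all genes.

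The gene that fell was Amh, which encodes anti-Mullerian hormone, a distant ligand of the family. It was detected in wild type on both arrays and in the knockout on neither. Its log2 ratios were -2.03 and -1.40, and it was at least 2.83-fold lower in the knockout (adjusted p = 0.0415, limma). Over 10 other settings its adjusted p ran from 0.0015 to 0.482, and it passed in 2 of them; its ratio was negative in all. The only other measured ligand of the list, the oocyte factor Gdf9, stood at -0.35 and -0.07.

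Among the other receptors, 3 were measured and none passed. Acvr1b, a type I receptor of activins, had log2 ratios of -1.10 and -0.55, but of 0.31 and -0.32 with median centring. Bmp7 can signal through Acvr1 and Acvr2a, which were named after their values were seen. Acvr1 was detected in wild type only and stood at -0.42 and -0.28, and Acvr2a stood at -0.51 and 0.24. With no normalisation the means of Acvr1, Acvr1b and Acvr2a were 0.28, 0.70 and 0.74, all under the shift of all genes of 1.34. The BMP receptors Bmpr1a, Bmpr1b and Bmpr2 were detected in no channel. Smad4, the partner shared by both branches, stood at 1.51 and 0.11. The BMP branch's Smad1 stood at 2.07 and -0.26 and its Smad5 at 0.30 and -0.13, both with opposite signs on the arrays; they too were named after their values were seen.

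For genes that hold TGF-beta latent or release it, 5 were measured and none passed. Furin, the protease that cleaves the TGF-beta precursor, stood at 0.83 and 0.51. Thbs1, which encodes the TGF-beta activator thrombospondin 1, stood at -0.39 and -0.14, and Nrros, which tethers latent TGF-beta on myeloid cells, at 0.05 and 0.35. The extracellular inhibitors Nog (noggin, -0.79 and -0.42) and Fstl3 (-0.75 and -0.57) were the 2 measured of 13, and neither was detected in the knockout. These inhibitors were thus named outside the naming rule given below. The mean of Nog was 0.06 with no normalisation.

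Intracellular regulators gave 15 measured genes, none past the threshold. Those named by the largest ratio on the weaker array were all below 0 after loess, but with median centring Tab1 and Rnf111 turned to means of 0.07 and 0.01, and with no normalisation all 3 turned positive. Tgif2, a corepressor of Smads, stood at -1.21 and -0.52, Tab1, a partner of the kinase Tak1, at -1.30 and -0.34, and Rnf111 (Arkadia), a ubiquitin ligase that degrades Smad inhibitors, at -1.23 and -0.29. A second probe of Rnf111 gave 0.33 and -0.03.

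Of 12 genes that TGF-beta or BMPs are known to induce, 6 were measured and none passed. Klf10, an early TGF-beta response gene, came nearest, with log2 ratios of 2.70 and 0.62 (adjusted p = 0.0553, limma), and it was detected in wild type on array 2 only. Over 10 other settings its adjusted p (limma) ran from 4.34e-05 to 0.636, and it passed as higher in 3 of them. The lowest value came with no normalisation, under which 5096 of the 9273 genes were called higher. Ccn2, another common target, stood at -0.62 and -0.01. Tgfbi, detected in the knockout only and so named outside the naming rule given below, stood at 0.37 and 0.39.

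**Figure D4:**
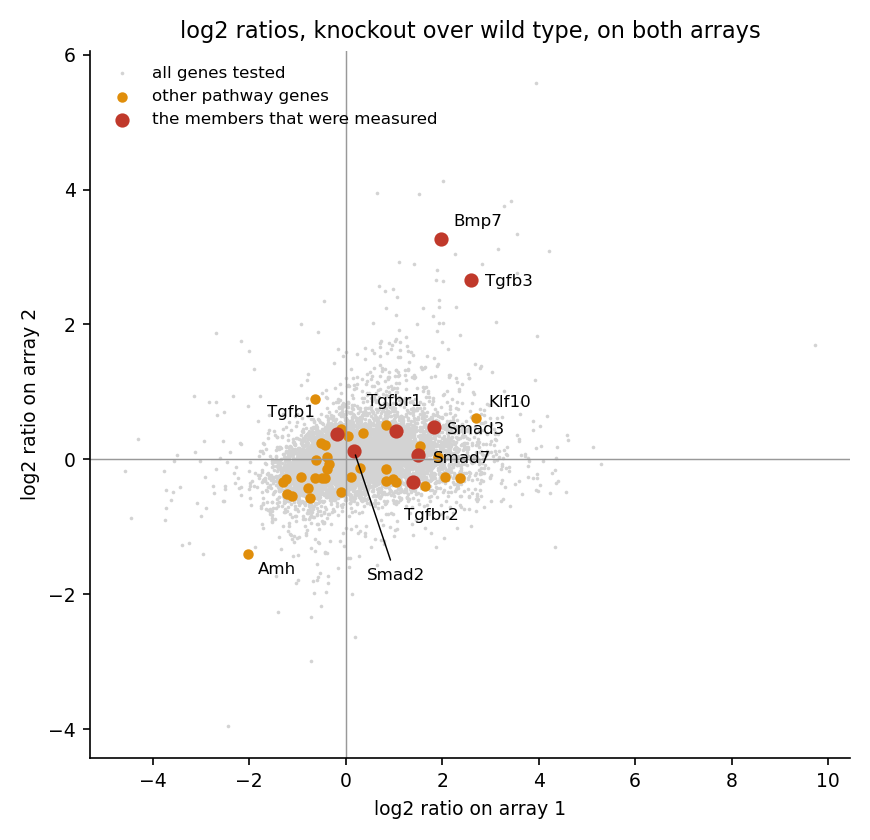
log2 ratio of knockout over wild type on array 1 (x axis) and array 2 (y axis) for the 9273 genes measured (grey), the 36 measured genes of the pathway list (orange) and the 8 measured members (red). Bmp7 (1.98 and 3.27) and Tgfb3 (2.59 and 2.66) lie at the upper right, and Amh (-2.03 and -1.40) at the lower left.

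In bulk RNA, more or fewer cells of a type and more or less RNA per cell cannot be told apart. Some markers of other cells were also higher in the knockout, and others were not. The macrophage marker Cd14 stood at -0.40 and -0.08 and the natural killer marker Ncr1 at -0.20 and 0.86. Both were named after their values were seen, as exceptions in their lists. Cd14 was the only measured macrophage or dendritic marker below 0 on both arrays. Ncr1 was the only measured natural killer marker below 0 on either. By the fit across all genes, 1.24% of all genes rose. Of 14 macrophage and dendritic markers, 11 were measured and 5 rose, among them Lyz2, whose ratios had opposite signs (4.03 and -0.38). The medians over the 11 were 1.41 (array 1) and 1.30 (array 2), so most of them were higher in the knockout whether or not they passed. The 14 markers had a summed level of 27621 in the knockout and 7555 in wild type on array 1, and of 28218 and 14305 on array 2 (normalised intensity, brightest probe of each gene). Without Lyz2, an omission chosen after the data were seen, the sums were 20900 and 7145 on array 1, and 22874 and 7341 on array 2. Adgre1, C1qc and Csf1r, named by their mean ratios, were not detected in wild type, and were at least 3.70-fold, 4.37-fold and 1.93-fold higher in the knockout; Cd68 and Itgam were detected in no channel. Of 8 natural killer (NK) cell markers, 6 were measured and 3 rose. The summed level of the 8 was 69061 in the knockout and 34131 in wild type on array 1, and 141580 and 32609 on array 2. Klrd1, which did not pass and was named after its values were seen, held a large part of these sums. Its levels were 46617 and 26586 on array 1 and 51564 and 23155 on array 2. Fcer1g was not detected in wild type and had a bound of at least 20.6-fold higher, 8.85-fold on array 1 alone and 47.9-fold on array 2 alone. Tyrobp, detected in every channel, had log2 ratios of 1.52 and 3.94, and Klrb1c, undetected in wild type on array 1, of 2.02 and 4.12. The part of these cells in the ratios of Bmp7 and Tgfb3 was not tested.

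Markers of platelets, stroma and regulatory T cells were mostly undetected, and the undetected ones were named after their values were seen. Of 6 platelet and megakaryocyte markers, 5 were detected in no channel, Pf4 and Ppbp among them. The same held for 6 of 8 stromal and endothelial markers, including Col1a2, Col3a1 and Pdgfra. Foxp3, Ctla4 and Il2ra, which mark regulatory T cells, were likewise detected in no channel. Ikzf2, also on that list, was measured and rose (2.17 and 1.25, adjusted p = 0.0418, limma). The list's summed level was 4905 in the knockout and 1776 in wild type on array 1, and 3125 and 2019 on array 2. Of these sums, Ikzf2 alone made up 4035 and 896 on array 1, and 1805 and 758 on array 2. The rest came from undetected markers. Of 7 B cell markers 3 were measured and none passed, and their summed level was 8388 in the knockout against 10164 in wild type on array 1, and 7393 against 7983 on array 2. Of 5 erythroid markers, 3 were on the array and 1 was measured. This was Hba-a1, with log2 ratios of 2.56 and 0.30, which did not pass and was undetected in wild type on array 1. The summed level of the 11 CD8 T cell markers, of which 10 were on the array, was 593656 in the knockout and 481273 in wild type on array 1, and 506846 and 439821 on array 2.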

How the data were processed

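Per the labels' protocols, RNA was amplified linearly and labelled chemically (Kreatech ULS). The submitters' processing notes name Agilent Feature Extraction 9.5.3.1 for the scans. Per the file headers, the deposited files hold linear intensity values of each spot, and log10 ratios that the scanner software had background-subtracted and dye-normalised. The deposited value table matched those log10 ratios within 0.005 at every spot.

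Log2 ratios were computed from the intensities in R 4.3.3 with limma 3.58.1, by normexp (offset 50) on mean signals and median local backgrounds and by loess within arrays; control and flagged spots had weight 0. No member spot was flagged or saturated. Spots were averaged per probe. A gene was measured if a probe was detected in one genotype on both arrays, and was read from its brightest such probe. The mean ratio was tested with lmFit and eBayes (limma), two-sided, over 9273 genes at a Benjamini-Hochberg adjusted p of 0.05. Each gene had 1 residual degree of freedom. In the main fit the estimated prior degrees of freedom were infinite, and a mean log2 ratio had to reach 1.68 in size to pass. Under some other settings the prior degrees of freedom were finite, such as 1.96 with no filter on dim probes. The fit was tested on simulated data: changes were estimated without bias, but few were called when the noise was drawn from these arrays' own differences. The number of arrays, 2, limits the precision, and both lay on 1 slide.

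The members and lists were chosen with earlier results of these data known. Named were all members with every probe; pathway genes that passed; for each role, up to 3 genes of one sign on both arrays, with both genotypes detected on an array, by the smaller ratio; and the 3 highest mean ratios of marker lists. In the marker lists, 1 gene is counted but not named here. Alternatives changed background correction, normalisation, filter, probe choice and variance prior.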

Additional observations from a re-analysis of the deposited data

How the results depend on the processing

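The counts of genes past the threshold varied with the processing: 138 of all genes, 2 members and 1 other pathway gene passed as reported. Without background correction these counts were 35, 1 (Bmp7) and 0. With the scanner software's log ratio they were 0, 0 and 0 (574 genes, 3 members and 5 pathway genes at an unadjusted p under 0.05, limma), and with the deposited value table also 0, 0 and 0 (569, 3 and 5). With median centring they were 64, 2 and 0. With no normalisation within the array, which moved the median of all genes by 1.34, they were 5097, 7 and 17. With log ratios scaled to one spread they were 0, 0 and 0 (901, 3 and 4 unadjusted). With no filter on dim probes they were 0, 0 and 0 (2478, 3 and 12 unadjusted), and with both genotypes detected on both arrays 39, 0 and 0 (of 3 measured members and 21 pathway genes, 0 and 4 unadjusted). With the mean of a gene's probes they were 147, 2 and 2, with every probe tested on its own 31, 2 and 0, and with an intensity trend in the variance prior 300, 3 and 2. The filters, and testing every probe on its own, changed how many tests were made. The prior degrees of freedom changed too. They were infinite in the main fit, but 1.96 with no filter on dim probes and 4.89 with scaled log ratios. They were 4.21 with the scanner software's log ratio and 4.17 with the deposited values. In each of these 4 settings no gene passed. With no filter, Amh kept its ratios, while its adjusted p (limma) went from 0.0415 to 0.457. The share of either change in the counts was not tested.

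The share of higher calls moved too, from 115 of 138 to 63 of 64 with median centring. Bmp7 and Tgfb3 had positive mean ratios in every setting that measured them, from 1.82 to 4.99 and from 1.37 to 4.75. In those settings both were more than 2-fold higher on each array, a count chosen after the data were seen. The share of all genes that were so ran from 0.41% without background correction to 49.7% with no normalisation. The members were chosen with their ratios known, so this count is a description only. Requiring both genotypes to be detected left both unmeasured. With 1 array left out there was no residual degree of freedom and so no test; the ratios were then those of the other array, below 0 for Tgfb1 without array 2 (-0.17) and for Tgfbr2 without array 1 (-0.34). No replicate block applied, since each array pairs both genotypes. No paired analysis was possible because the ratio within an array is already the paired difference.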
